A study of Mus musculus with 8 samples.

Results

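The 4 miRNAs mmu-miR-10a, mmu-miR-10b, mmu-miR-196a and mmu-miR-196b are encoded inside the Hox gene clusters, and they were measured in stroma, mature ducts and terminal end buds (TEBs) of the pubertal mouse mammary gland. They were found by their names among the 611 mouse miRNAs on the array, and all 4 were present. They were selected on their genomic position and with the earlier finding in these same data that miR-196a and miR-196b were high in stroma. Their differences between stroma and the other tissues are therefore given as a description with no test, whereas the comparison of TEBs with ducts was not used for the choice and was tested.

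All tissue came from 5-week-old female mice carrying a β-actin-GFP reporter, which the study's methods place on the FVB/n strain, and no group was treated. Under a fluorescence microscope, distal stroma (3 arrays), mature ducts (2 arrays) and TEBs (3 arrays) were cut from mammary glands 2 to 5, and total RNA of each sample was hybridised to a single-colour Agilent mouse miRNA array. The stroma was taken away from the epithelial tree, whereas the duct and TEB pieces are whole structures that can carry adjoining stroma, so fewer cells of a type and less RNA per cell cannot be told apart. The labels do not say whether replicates came from separate animals, and the p-values measure only the spread between these arrays.

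Hox clusters hold transcription factor genes that give body segments and organs their positional identity, and several miRNA genes lie between or within them. A miRNA is a short RNA that lowers the output of messenger RNAs, mainly through pairing of its seed, the bases near its 5′ end. The miR-10 and miR-196 families each target Hox transcripts among other messages. TEBs are the proliferative, invading tips of the growing ductal tree during puberty, and the stroma at this age is a fat pad of adipocytes, fibroblasts, vessels and immune cells.

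The mature sequences are shown because they set out which members share a seed and how closely the paralogs resemble each other. They are the RefSeq 5p strands, to which the array's older names were matched, written 5′ to 3′ with the seed (bases 2 to 8) in capitals:
mmu-miR-10a: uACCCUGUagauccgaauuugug
mmu-miR-10b: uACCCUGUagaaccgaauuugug
mmu-miR-196a: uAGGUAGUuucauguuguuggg
mmu-miR-196b: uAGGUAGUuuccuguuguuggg

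Each family has its own seed. Only miR-10a and miR-10b carried the first seed among the mature mouse miRNAs in the RefSeq table, and only miR-196a and miR-196b carried the second. Counting from 1 at the 5′ end, miR-10a and miR-10b differ by the substitution U12A and miR-196a and miR-196b by A12C, both outside the seed. Signal that one paralog may give on the probes of the other was not tested, and the probe sequences were not used here.

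In build GRCm38.p6, mature miR-10a lies at chr11:96317186-96317208 on the plus strand, in the HoxB cluster between Hoxb5 and Hoxb4 and inside the annotated span of Hoxb3. Mature miR-10b lies at chr2:74726074-74726096 on the plus strand, in the HoxD cluster and inside the spans of Hoxd3 and Hoxd4. The mature miR-196a sequence has 2 loci, chr11:96265187-96265208 between Hoxb13 and Hoxb9 and chr15:102973365-102973386 between Hoxc10 and Hoxc9, both on the plus strand, and the array cannot tell them apart. Mature miR-196b lies at chr6:52230129-52230150 on the minus strand, between Hoxa9 and Hoxa10. The members thus come from all 4 Hox clusters.

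Between 23.2% and 27.7% of the mouse miRNAs were detected per array, and the deposited signals were brought to a common 75th percentile, taken over the 108 miRNAs that all 8 arrays detected, with factors of 0.750 to 0.802 for ducts, 0.946 to 1.05 for TEBs and 1.02 to 1.36 for stroma. Arrays of the same tissue correlated at r = 0.955 to 0.987 and arrays of different tissues at r = 0.645 to 0.926. The 6 epithelial markers (the miR-200 family and miR-205) were absent from the detected miRNAs of every stroma array and present on each array of ducts and TEBs. The 4 fibroblast markers on the array, among them miR-214, were detected on all 8 arrays, with summed scaled signals of 3912 to 4115 in stroma, 4769 to 4954 in ducts and 4005 to 5174 in TEBs.

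All 4 members were detected on all 8 arrays, and their levels followed different courses across the tissues. miR-196a was high in stroma alone. miR-196b stepped down from stroma to ducts to TEBs. miR-10a and miR-10b were lowest in TEBs, and the duct and stroma arrays of miR-10b overlapped. Signals below are background-subtracted intensities after scaling, and levels are compared only within a miRNA because probes differ in their response.

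The scaled signal of miR-196a was 187.5, 250.3 and 202.4 in stroma, 48.3 and 53.1 in ducts, and 57.2, 52.9 and 50.6 in TEBs. Every stroma array lay far above every epithelial array, while ducts and TEBs overlapped. The stroma mean was 213 ± 32.8 (SD, n = 3), against 50.7 ± 3.43 (SD, n = 2) for ducts and 53.6 ± 3.37 (SD, n = 3) for TEBs.

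For miR-196b the stroma arrays read 49.7, 78.4 and 70.1, the duct arrays 35.7 and 29.9, and the TEB arrays 19.4, 15.2 and 16.4. No tissue overlapped another, and stroma varied most. The stroma mean was 66.1 ± 14.8 (SD, n = 3), the duct mean 32.8 ± 4.08 (SD, n = 2) and the TEB mean 17.0 ± 2.14 (SD, n = 3). This was the dimmest member, with a signal of 2.996 to 7.77 times its array's own error estimate, against 7.55 to 15.5 for miR-196a.

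The scaled signal of miR-10a was 195.8, 202.1 and 180.0 in stroma, 164.7 and 171.1 in ducts, and 122.2, 119.2 and 115.6 in TEBs. The tissues again did not overlap, although the step from stroma to ducts was small. Means were 193 ± 11.4 (SD, n = 3), 168 ± 4.52 (SD, n = 2) and 119 ± 3.33 (SD, n = 3), in that order.

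For miR-10b the signals were 282.3, 296.7 and 249.1 in stroma, 282.0 and 270.0 in ducts, and 182.2, 170.5 and 130.1 in TEBs. Stroma and duct arrays overlapped, and all TEB arrays lay below both. Stroma averaged 276 ± 24.4 (SD, n = 3), ducts averaged 276 ± 8.44 (SD, n = 2) and TEBs, with replicate 3 the lowest, averaged 161 ± 27.3 (SD, n = 3). Both miR-10 members were measured at 10.8 to 12.2 times the arrays' error estimate.

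**Figure D1:**
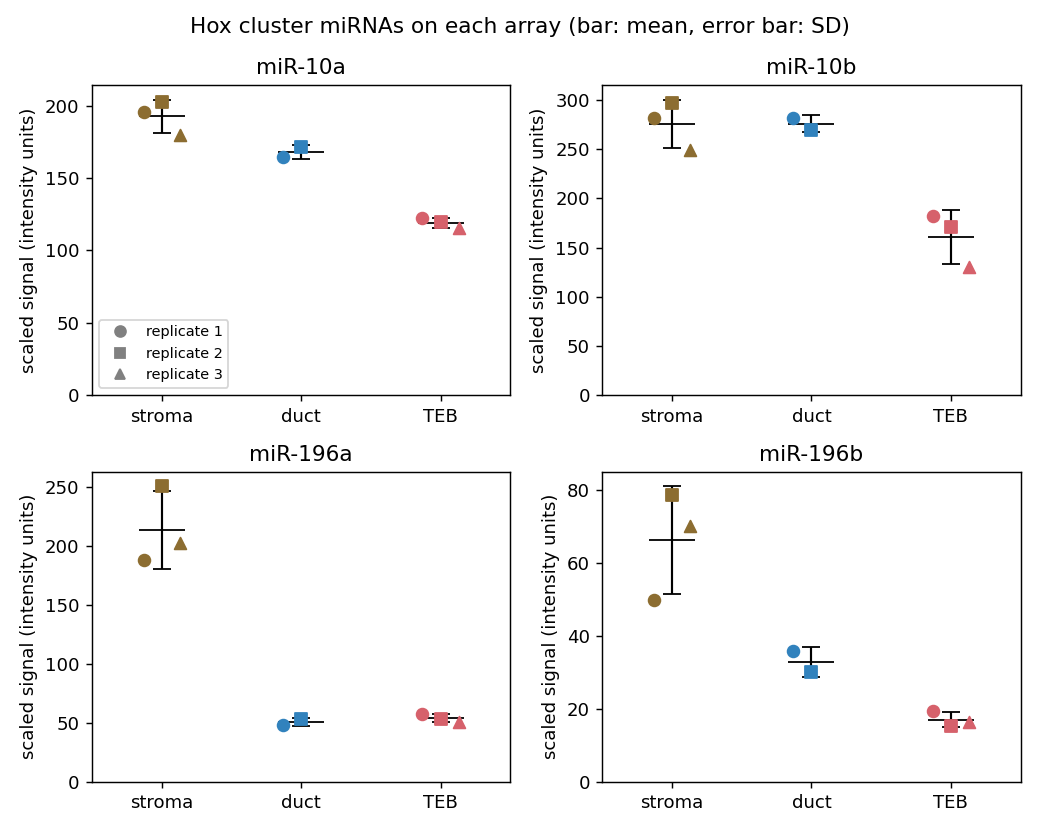
Scaled signal (y axis, intensity units, from 0) of miR-10a, miR-10b, miR-196a and miR-196b on each array of stroma, duct and TEB (x axis); symbols mark the replicate, the horizontal bar the mean and the error bar the SD. miR-196a stands at 187.5 to 250.3 in stroma against 48.3 to 57.2 in the other tissues, while miR-10a, miR-10b and miR-196b are lowest in TEBs; the step from ducts to TEBs depends on the scaling, and for miR-10a it turns in sign when arrays are scaled on all miRNAs.

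The comparison of TEBs with ducts asks what sets the growing tips apart from the finished epithelial tubes. After scaling on the commonly detected miRNAs, 3 of the 4 members were lower in TEBs: miR-10a, miR-10b and miR-196b. The limma fit across all 167 tested miRNAs, with Benjamini-Hochberg adjustment over all of them, called 24.6% either way (19 higher and 22 lower in TEBs) and 13.2% lower in TEBs. The median difference was -0.64 on the log2 scale over the members and -0.10 over all tested miRNAs.

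miR-10a was 1.41-fold lower in TEBs than in ducts, a log2 difference of -0.50 (SE 0.09, adjusted p = 0.0148). miR-10b was 1.73-fold lower, with a log2 difference of -0.79 (SE 0.17, adjusted p = 0.0201). miR-196b was 1.93-fold lower, with a log2 difference of -0.95 (SE 0.22, adjusted p = 0.0242). For these 3 members every TEB array lay below every duct array, as it did for 43.1% of the tested miRNAs. The exact two-sided permutation test gave p = 0.1 for each of them, the smallest that 3 against 2 arrays can give.

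miR-196a did not pass the test between the epithelial structures. Its log2 difference was 0.08 (SE 0.15, adjusted p = 0.703), the arrays overlapped, and the exact two-sided permutation p was 0.5. Within the upper slide row its difference was 0.19 and within the lower row -0.07. For the other members the rows had the same sign, at -0.45 and -0.57 for miR-10a, -0.68 and -1.05 for miR-10b, and -1.06 and -0.86 for miR-196b.

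The size of these differences turned on how the arrays were scaled. With the 75th percentile taken over all 611 miRNAs, of which most were not detected, the median of the tested miRNAs moved from -0.10 to 0.45 and the calls from 19 higher and 22 lower to 24 higher and 6 lower. miR-10a then turned to 0.054 (adjusted p = 0.875), miR-10b was -0.24 (adjusted p = 0.577) and miR-196b was -0.40 (adjusted p = 0.261). Without scaling the median was -0.47, with 12 called higher and 63 lower, and miR-196a turned to -0.29 (adjusted p = 0.219). Quantile normalization, with a median of 0.02 and calls of 31 higher and 14 lower, kept all 3 members lower but past no threshold (adjusted p = 0.0604 for miR-10a, 0.0825 for miR-10b and 0.191 for miR-196b), and the authors' normalized log2 values did likewise (adjusted p = 0.0654, 0.0733 and 0.212).

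Measured from the median of the tested miRNAs, miR-10a lay at -0.39, miR-10b at -0.69, miR-196a at 0.18 and miR-196b at -0.85. Both percentile scalings and no scaling give these same values here, since they shift all miRNAs above the floor alike. Quantile normalization, which can change them, gave -0.31, -0.57, 0.28 and -0.36 in the same order, and the authors' normalized values -0.29, -0.54, 0.26 and -0.27. For the dim miR-196b the treatment of background counted too, with a difference of -0.56 (adjusted p = 0.0404) when 16 was added to each scaled signal and -0.25 (adjusted p = 0.178) after normexp with an offset of 50. The calls also rested on single arrays: without duct replicate 1 the adjusted p was 0.0544 for miR-10b and 0.0717 for miR-196b, without duct replicate 2 it was 0.0572 for miR-10a, 0.058 for miR-10b and 0.0572 for miR-196b, and without TEB replicate 2 it was 0.0538, 0.0538 and 0.0752 in the same order. The differences in these fits stayed between -1.08 and -0.47. Leaving out an array can also change the miRNAs detected on all arrays, and so the scaling.

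**Figure D2:**
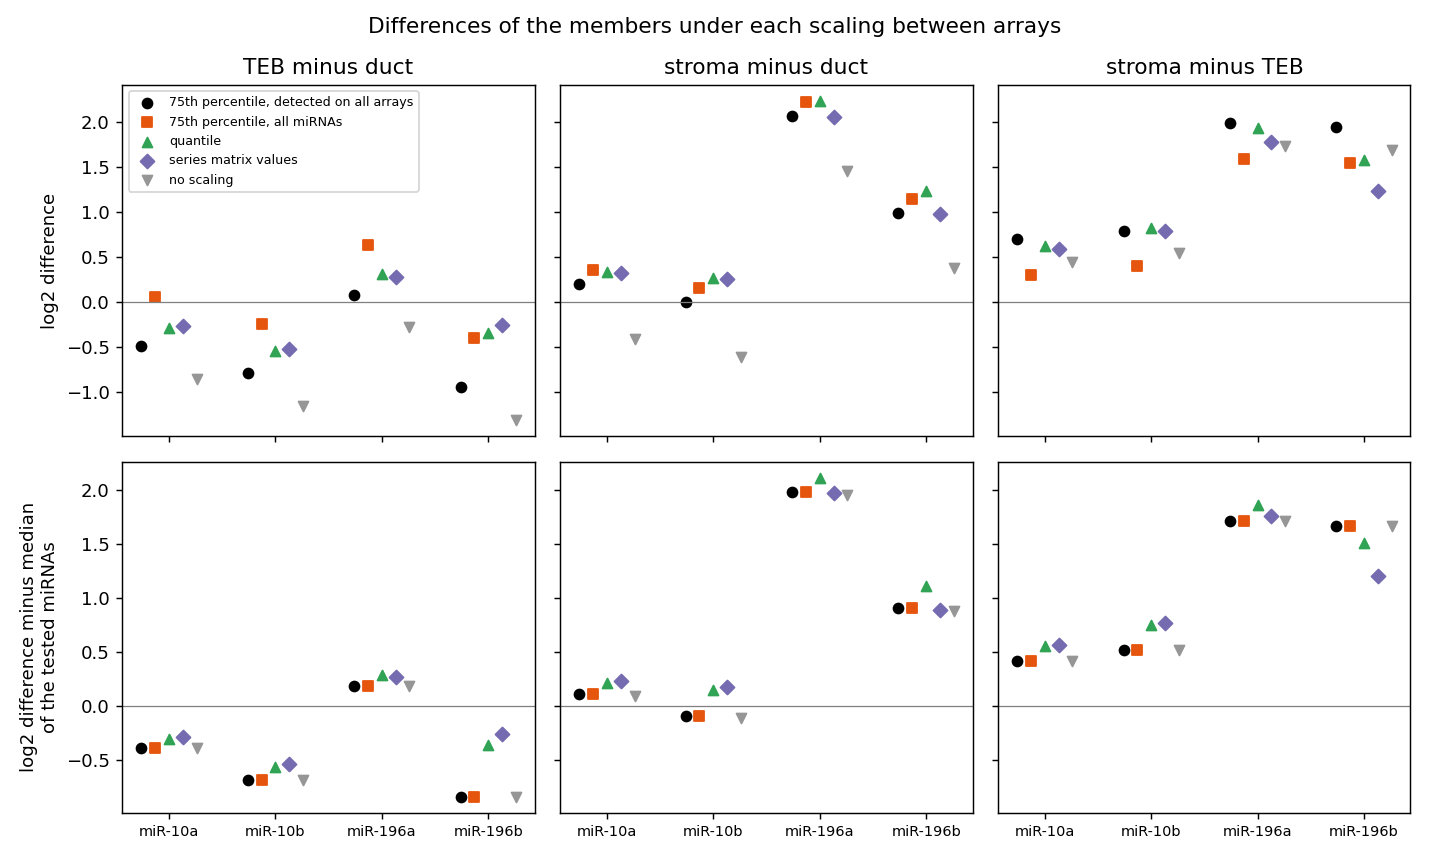
Log2 difference of each member (upper row) and the same difference minus the median of all tested miRNAs (lower row) for TEB minus duct, stroma minus duct and stroma minus TEB under 5 scalings between arrays, shown as symbols. In TEB minus duct the upper row spreads across 0 for miR-10a, from -0.86 without scaling to 0.054. In the lower row the percentile scalings and no scaling coincide there, since they shift miRNAs above the floor alike. Quantile normalization and the authors' values place miR-10a at -0.31 and -0.29 in that row. miR-196a and miR-196b stay above 0 in both comparisons with stroma under every scaling.

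The stroma comparisons describe the pattern on which the miR-196 members were chosen. miR-196a was 4.18-fold higher in stroma than in ducts, a log2 difference of 2.06 (SE 0.15) and the third highest of 167. Its difference over TEBs was 1.98 (SE 0.13), or 3.96-fold, at rank 15 of 167. It was 1.96 and 2.08 above ducts and 1.77 and 2.15 above TEBs within the 2 slide rows.

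miR-196b was 1.99-fold higher in stroma than in ducts (log2 difference 0.99, SE 0.22) and 3.84-fold higher than in TEBs (1.94, SE 0.20). These differences ranked 10 and 17 of 167. Over ducts, the slide rows gave unequal values of 0.48 and 1.31. Under the other 20 processings tried, both miR-196 members stayed higher in stroma, at 1.32 to 2.23 over ducts and 1.29 to 2.07 over TEBs for miR-196a, and at 0.38 to 1.24 and 0.86 to 2.13 for miR-196b. Some of these processings leave the difference unchanged by construction.

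The miR-10 members showed no step of that size between stroma and ducts, and smaller ones than the miR-196 members between stroma and TEBs. Stroma minus duct was 0.20 (SE 0.09) for miR-10a and -0.0033 (SE 0.17) for miR-10b, and both signs changed with the scaling: without scaling miR-10a was -0.42, and with quantile normalization miR-10b was 0.27. Stroma minus TEB was 0.69 (SE 0.08) for miR-10a and 0.79 (SE 0.15) for miR-10b. The sign was the same in all 20 alternatives, some of which cannot change the difference.

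Arrays of stroma lay above all duct arrays for 3 of 4 members, which compares with 22.8% of the tested miRNAs, and above all TEB arrays for 4 of 4, which compares with 48.5%. The fit called 21.6% of the tested miRNAs between stroma and ducts and 64.7% between stroma and TEBs. Nothing is read from the members' counts, since the choice used these contrasts.

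Summed signals of other cell type markers also differed between the tissues. The 5 adipocyte markers, among them miR-378 and miR-365, summed to 1656 to 2100 in stroma, 670 to 831 in ducts and 737 to 951 in TEBs, with 5, 4 and 5 of them detected on all arrays of the tissue. The endothelial list, of which miR-126-3p was detected and miR-126-5p was not, summed to 2765 to 3863, 1927 to 2061 and 1315 to 1650. The leukocyte list, with miR-142-5p and miR-150 not detected, summed to 563 to 679, 361 to 384 and 296 to 450. The red cell pair, miR-451 and miR-144, summed to 1988 to 3577 in stroma, 2591 to 3276 in ducts and 1370 to 1902 in TEBs. Both were detected on all stroma and duct arrays, but only 1 on all TEB arrays. Their stroma and duct sums overlapped and TEBs lay below both, as for miR-10b. The endothelial sums stepped down from stroma to ducts to TEBs without overlap, as for miR-10a and miR-196b. The muscle list, with miR-206 not detected and miR-1 detected on no stroma array, summed to 31.2 to 60.2, 56.1 to 179 and 17.1 to 89.5. Of its 4 miRNAs, 0, 2 and 0 were detected on all arrays of stroma, ducts and TEBs, so its sums include signals not called detected. All these sums were taken after scaling on the commonly detected miRNAs. The part of these cell types in the members' differences was not tested.

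The ratio of paralogs within an array does not change when the array is multiplied by a constant factor, but other normalizations can change it. The log2 ratio of miR-196a over miR-196b was 1.92, 1.67 and 1.53 in stroma, 0.44 and 0.83 in ducts, and 1.56, 1.80 and 1.62 in TEBs. Both duct arrays lay below all 6 others. The duct mean was 0.63 ± 0.28 (SD, n = 2), the TEB mean 1.66 ± 0.12 (SD, n = 3) and the stroma mean 1.71 ± 0.19 (SD, n = 3).

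The ratio was thus 1.03 higher on the log2 scale in TEBs than in ducts (exact two-sided permutation p = 0.1, the smallest possible). Which member moved depends on the scaling, since the TEB minus duct differences of miR-196a and miR-196b were 0.08 and -0.95 here, 0.63 and -0.40 with scaling on all miRNAs, and 0.27 and -0.25 in the authors' normalized values. With single arrays left out it was 0.83 to 1.23. It was smaller with the dim signals damped or normalized otherwise, at 0.62 with 16 added to each scaled signal, 0.53 in the authors' normalized values and 0.28 after normexp with an offset of 50, and duct arrays stayed below the TEB and stroma arrays in each.

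For miR-10a over miR-10b the stroma mean was -0.52 ± 0.04 (SD, n = 3), the duct mean -0.72 ± 0.08 (SD, n = 2) and the TEB mean -0.42 ± 0.22 (SD, n = 3). It was 0.30 higher in TEBs than in ducts (exact two-sided permutation p = 0.2). TEB replicate 3 had the highest ratio, and without it the difference was 0.17. In the authors' normalized values the difference was 0.25 (exact two-sided permutation p = 0.4), and ducts overlapped both other tissues. With 16 added it was 0.29 and after normexp 0.26, with TEB arrays above duct arrays in each. Of the 2 ratios compared, neither could pass a threshold of 0.05 with these numbers of arrays.

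**Figure D3:**
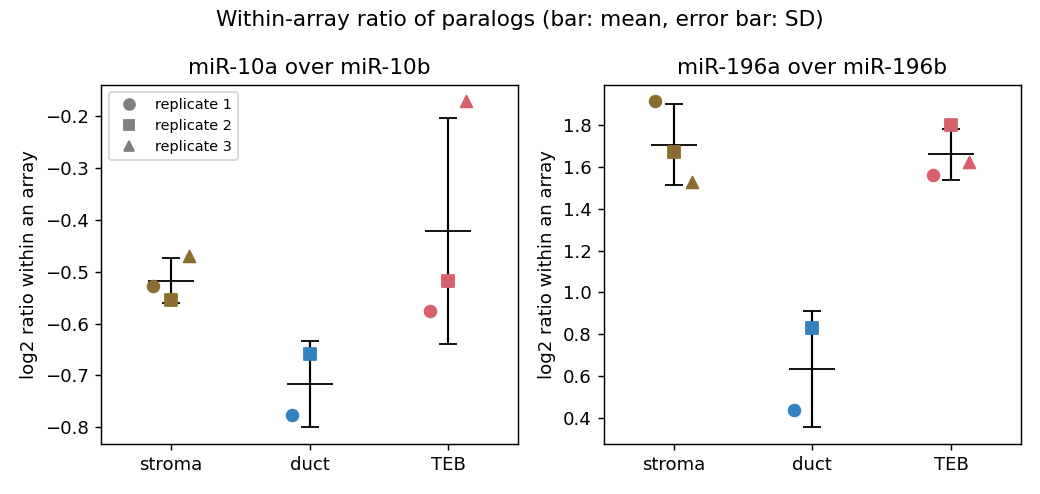
Log2 ratio of miR-10a over miR-10b (left) and of miR-196a over miR-196b (right) within each array (y axis) by tissue (x axis); symbols mark the replicate, the bar the mean and the error bar the SD. The 2 duct arrays lie at 0.44 and 0.83 for the miR-196 pair, below all stroma and TEB arrays, which lie at 1.53 to 1.92.

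Of the other strands of the hairpins, miR-10a*, miR-10b* and miR-196a* were detected on none of the 8 arrays, and their signals were below the local background throughout. The other strand of miR-196b was not analysed here.

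The Hox clusters hold one more miRNA gene on the array, which has a seed unrelated to those of the members, shown in capitals:
mmu-miR-615-3p: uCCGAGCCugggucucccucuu
The mature strand lies at chr15:103014969-103014990 on the plus strand of GRCm38.p6, in the HoxC cluster and inside the span of Hoxc5.

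miR-615-3p read 33.7, 64.4 and 35.5 in stroma, 52.0 and 30.8 in ducts, and 3.1, 9.5 and 15.4 in TEBs, where it was detected on 1 of 3 arrays. Stroma and ducts overlapped and TEBs lay below both, as for miR-10b. It was lower in TEBs than in ducts by a log2 difference of -2.39 (SE 0.69, limma adjusted p = 0.0498), with slide rows at -3.27 and -0.997 and an exact two-sided permutation p of 0.2. The call was at the threshold and held in 8 of 19 alternatives, 5 of the lost ones being fits without stroma replicate 1 (adjusted p = 0.0781), stroma replicate 3 (0.0689), duct replicate 1 (0.134), duct replicate 2 (0.0687) or TEB replicate 2 (0.092). Stroma minus TEB was 2.48 (SE 0.62, limma adjusted p = 0.0135), a call lost with no detection filter (adjusted p = 0.0627), where eBayes is unreliable. The p-values against TEBs carry a further limit. miR-615-3p entered the test only through stroma and ducts, whose arrays all detected it, so the filter leans toward a lower TEB level. Since 2 of 3 TEB arrays did not detect it, the sizes depend on how low signals are treated: TEB minus duct was -1.19 with 16 added, -0.50 after normexp (adjusted p = 0.0626) and -1.22 in the authors' normalized values, and stroma minus TEB was 1.25, 0.80 and 1.34. Between stroma and ducts the difference was 0.09 (SE 0.69, limma adjusted p = 0.95). miR-615-5p was detected on no array.

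Outside the Hox clusters, the miR-99, miR-100 and miR-125 miRNAs are related to the miR-10 family in sequence. miR-100 is shown because it shares a run of 11 bases with miR-10a, with its own seed in capitals:
mmu-miR-100: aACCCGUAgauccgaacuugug
Of 9 such strands on the array 5 were tested, and only miR-100 passed the threshold in any comparison. Of all tested miRNAs, 24.6% passed between TEBs and ducts, 21.6% between stroma and ducts and 64.7% between stroma and TEBs.

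miR-100 was at 158.6, 145.2 and 148.4 in stroma, 148.7 and 142.0 in ducts, and 104.6, 114.4 and 111.9 in TEBs. TEBs lay below both other tissues, which overlapped. Its TEB minus duct difference was -0.40 (SE 0.09, limma adjusted p = 0.0242) and its stroma minus TEB difference 0.45 (SE 0.08, limma adjusted p = 0.00395). Scaled on all miRNAs, the first turned to 0.15 (adjusted p = 0.68) and the second was 0.06 (adjusted p = 0.876), and without duct replicate 1, duct replicate 2 or TEB replicate 2 the adjusted p of the first was 0.0544, 0.0637 and 0.0665. The TEB minus duct call held in 11 of 20 alternatives, and was also lost with quantile normalization (adjusted p = 0.121), the authors' normalized values (0.153), normexp (0.0573), the replicate block (0.0856) and only the compared tissues fitted (0.052). The stroma minus TEB call was also lost without scaling (0.20, adjusted p = 0.353).

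The other tested strands had TEB minus duct differences of -0.29 for miR-125b-5p (limma adjusted p = 0.101), 0.06 for miR-99a (0.746), 0.14 for miR-125a-5p (0.315) and 0.41 for miR-99b (0.109). None passed the threshold, and miR-99b, which entered the test through TEBs alone, was detected on 1 of 3 stroma and 1 of 2 duct arrays.

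**Figure D4:**
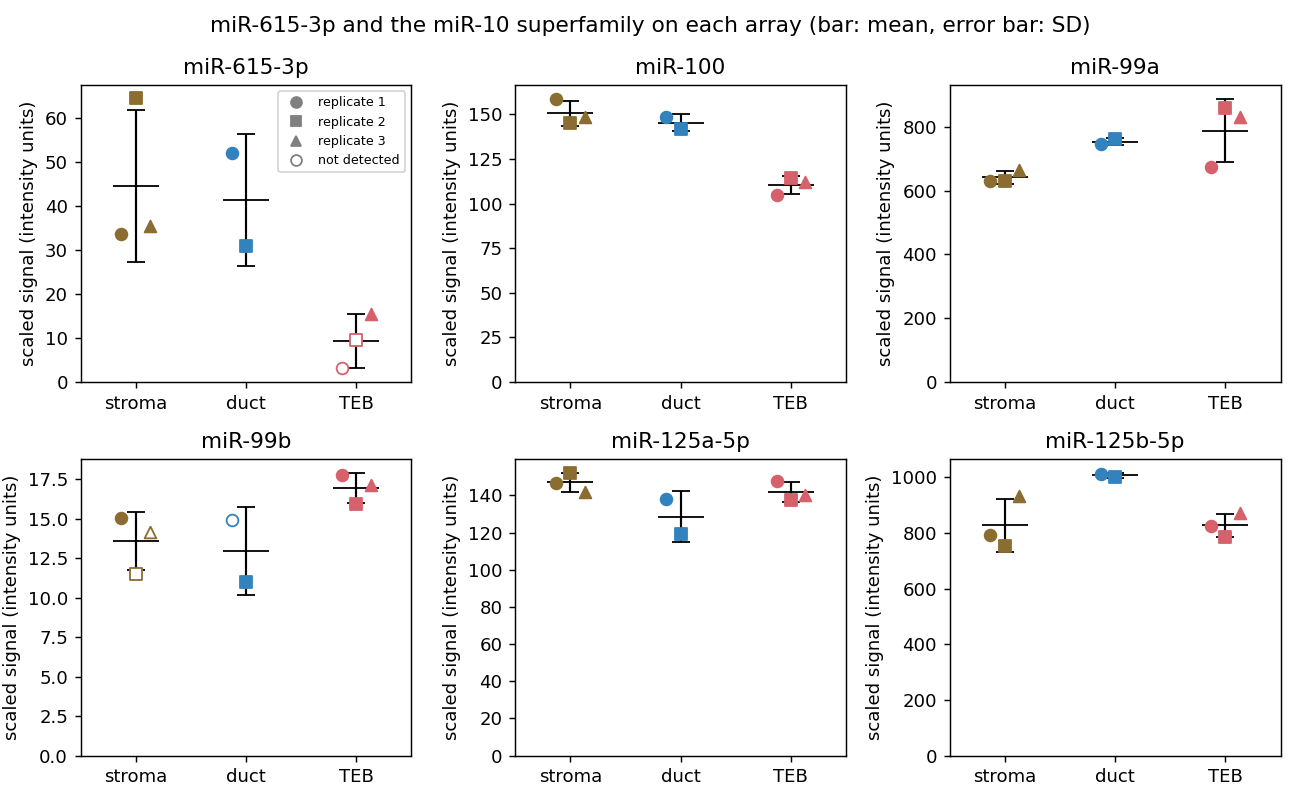
Scaled signal (y axis, intensity units, from 0) of miR-615-3p, miR-100, miR-99a, miR-99b, miR-125a-5p and miR-125b-5p on each array by tissue (x axis); open symbols are arrays on which the miRNA was not detected, the bar is the mean and the error bar the SD. miR-615-3p and miR-100 are lowest in TEBs, at 3.1 to 15.4 and 104.6 to 114.4; for miR-100 the TEB to duct difference turns in sign when arrays are scaled on all miRNAs.

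Likeness of pattern was measured as Pearson's r of log2 scaled signals over the 8 arrays against the 166 other tested miRNAs, as a description, since arrays of a tissue share its level and all arrays share the scaling. miR-196a was most like miR-107 (r = 0.997), miR-30e (r = 0.988) and miR-365 (r = 0.988), of which miR-365 is on the adipocyte list. miR-107 had mean scaled signals of 718 in stroma, 345 in ducts and 357 in TEBs.

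miR-196b was most like miR-23a (r = 0.962), miR-29a (r = 0.959) and miR-30d (r = 0.947). For miR-10a the nearest were miR-30c (r = 0.984), miR-26b (r = 0.956) and miR-29a (r = 0.951). For miR-10b they were let-7b (r = 0.945), miR-10a (r = 0.933) and miR-486 (r = 0.925), the last a miRNA abundant in red cells.

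Sharing a seed did not make paralogs nearest neighbours in every case. miR-10a was the second nearest to miR-10b, whereas miR-196b came at position 23 for miR-196a (r = 0.873). miR-196b was closer to miR-10a (r = 0.936). Of the 12 named neighbours, 5 remained with scaling on all miRNAs and 4 without scaling.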

How the data were processed

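Signals came from 8 single-colour Agilent mouse miRNA arrays, with RNA labelled by Cy3-pCp and scanned signals extracted by Agilent Feature Extraction 9.5.3, per the submitters' processing notes. The deposited intensity per miRNA is background-subtracted by that software, is not normalized between arrays, and comes with an error and a detection call. The authors also deposited a table of log2 values whose ranks are equal between arrays, as after quantile normalization; its method is not given in the sources used here. Of 672 rows, 61 that name no mouse miRNA were left out.

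Arrays were divided by their 75th percentile, computed on the 108 miRNAs found on all 8 arrays, and multiplied by the geometric mean of these percentiles. A floor of 1 was applied to the scaled signals before log2. Those 167 miRNAs that all arrays of some tissue detected were fitted with limma 3.58.1 in R 4.3.3 on all 8 arrays, with eBayes and Benjamini-Hochberg adjustment per comparison at 0.05. The fit was tested on simulated data. The number of arrays limits the precision.

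The members and lists were chosen with earlier results of these data known. The named miRNAs were the members, their other strands, miR-615, the miR-10 superfamily and the 3 most similar miRNAs of each member. Alternatives covered scaling, floor, background, filter, replicate block, slide row, spread estimate, samples fitted, the authors' log2 values, the methods' t-test and leaving out each array. Added after seeing the data were 2 further alternatives for the ratios, the full set for miR-615-3p and miR-100, and differences relative to the median. Slide row was read from the array position in the scan names. Sequences and positions are from RefSeq on GRCm38.p6.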

Additional observations from a re-analysis of the deposited data

How the results depend on the processing

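Stroma over TEB kept its sign for all 4 members in the 20 alternatives run, and stroma over duct for miR-196a and miR-196b. Several of these cannot change a difference, since filters, trend and robust estimation and fitting only the compared tissues alter only the spread or the adjustment. The calls of miR-10a, miR-10b and miR-196b between TEBs and ducts held in 14, 12 and 11 of 20, with adjusted p (limma) of 0.0079 to 0.875, 0.00695 to 0.577 and 0.00701 to 0.261, and miR-196a passed in none (0.136 to 1). The cause of these losses was not tested. Leaving out an array leaves fewer samples, and it can also change the miRNAs detected on all arrays and so the scaling. Low signal limits miR-99b, detected on 5 of 8 arrays, and miR-615-3p, and among the members miR-196b.

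With scaling on all miRNAs, TEB minus duct was 0.054 for miR-10a, -0.24 for miR-10b, -0.40 for miR-196b and 0.15 for miR-100. Stroma minus duct was then 0.36 for miR-10a, 0.16 for miR-10b (turned) and 2.22 for miR-196a, with 19 miRNAs called against 36. Stroma minus TEB was 0.30 for miR-10a, 0.40 for miR-10b, 1.59 for miR-196a and 1.55 for miR-196b, with 66 called against 108. Without scaling, TEB minus duct was -0.29 for miR-196a, with 75 called against 41. Stroma minus duct was -0.42 for miR-10a (turned), -0.62 for miR-10b, 1.45 for miR-196a and 0.38 for miR-196b, with 56 called, and stroma minus TEB was 0.45 for miR-10a, 0.54 for miR-10b and 1.74 for miR-196a. With quantile normalization, TEB minus duct was -0.29 for miR-10a, -0.55 for miR-10b and -0.34 for miR-196b. Stroma minus duct was 0.33 for miR-10a, 0.27 for miR-10b and 2.23 for miR-196a, and stroma minus TEB 0.62 for miR-10a and 1.58 for miR-196b. In the authors' log2 values, TEB minus duct was -0.27 for miR-10a, -0.53 for miR-10b and -0.25 for miR-196b. Stroma minus duct was 0.31 for miR-10a and 0.26 for miR-10b, and stroma minus TEB 0.59 for miR-10a, 1.78 for miR-196a and 1.23 for miR-196b.

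With 16 added in place of the floor, stroma minus duct was 1.77 for miR-196a, and stroma minus TEB 0.63 for miR-10a, 1.71 for miR-196a and 1.30 for miR-196b, and the split of TEB minus duct calls was 15 higher and 35 lower. With normexp, TEB minus duct was -0.25 for miR-196b, with 27 called. Stroma minus duct was 0.057 for miR-10b, 1.32 for miR-196a and 0.61 for miR-196b, with 69 called, and stroma minus TEB 0.57 for miR-10a, 1.29 for miR-196a and 0.86 for miR-196b. With no detection filter, where most residual variances are 0 and eBayes is unreliable, TEB minus duct was -0.79 for miR-10b and -0.95 for miR-196b, both past no threshold, with 18 called. With only the compared tissues fitted, miR-10b was -0.79 (adjusted p = 0.0503). Fitting slide row beside tissue turned stroma minus duct of miR-10b to 0.029. The methods' t-test called 53 between TEBs and ducts at an unadjusted p of 0.05 and 12 after Benjamini-Hochberg. After that adjustment the t-test kept miR-10a (adjusted p = 0.0238) but lost miR-10b (0.112) and miR-196b (0.0841), and miR-196a did not pass (0.5). These t-test values are not among the alternatives counted above for the members.

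Deviations of same-numbered arrays from their tissue means had a mean r of -0.10 over 7 pairs (-0.51 to 0.36). The 14 other pairs had a mean r of 0.05 (-0.50 to 0.51). Deviations cancel out over the few arrays of a tissue, so these values cannot decide whether the numbers pair the samples. With the replicate block, 16 miRNAs were called between TEBs and ducts, miR-10a was -0.46 and miR-196b -0.97, both past no threshold, and stroma minus duct of miR-10b was 0.11.

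Leaving out each array in turn gave TEB minus duct differences of -0.73 to -0.47 for miR-10a, -1.11 to -0.69 for miR-10b, -0.20 to 0.15 for miR-196a and -1.27 to -0.87 for miR-196b, with 5 to 70 called: 5 without TEB replicate 2, 10 without duct replicate 1 and 70 without TEB replicate 1. miR-196a turned without stroma replicate 2 (-0.03), duct replicate 1 (-0.20) and TEB replicate 1 (-0.19). Without stroma replicate 2 no TEB or duct array is missing, so the change there is one of scaling. In that fit miR-10a moved from -0.50 to -0.60 and miR-10b from -0.79 to -0.90. Stroma minus duct ranged from -0.050 to 0.25 for miR-10a, -0.25 to 0.069 for miR-10b and 1.78 to 2.15 for miR-196a. miR-10a turned without duct replicate 1 (-0.04) and TEB replicate 1 (-0.050), and miR-10b without stroma replicate 3 (0.069). Without TEB replicate 1 no stroma or duct array is missing, so that turn is also one of scaling.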
